A study of Mus musculus with 9 samples.

Results

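The genes described here are 9 aminoacyl-tRNA synthetases of the mitochondrion, Lars2, Aars2, Ears2, Fars2, Iars2, Nars2, Vars2, Sars2 and Yars2. They were found by symbol in the deposited transcript table, where they hold 11 of 33299 RefSeq transcripts, and they are 9 of the 23798 genes those transcripts make up. Lars2 heads the family because of its values in these libraries: it had the highest count of any transcript in the wild-type (WT) mice and was listed at 0 in mice of the genotype labelled TG that were given NM-101. The family was chosen by those measured values of Lars2, which are therefore given as a description, and no test of them is read as a result. The other 8 members were listed by function.

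RNA was taken from mouse brain in 3 groups of 3 libraries: TG mice given NM-101, TG mice given placebo, and WT mice given placebo. The labels describe the cell type of every library as oligodendrocyte. What TG stands for, the alleles these mice carry, the age of the mice, the dose of NM-101 and what kind of agent it is are not stated in the labels. The series title names alpha-synuclein that comes from neurons. Nothing states that the libraries of a group are different mice. The p-values therefore reflect how far these libraries differ, which may be technical.

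Mitochondria carry their own DNA and translate the few proteins it encodes on their own ribosomes. Each amino acid must first be joined to its transfer RNA, and the synthetases that do this are encoded in the nucleus, made in the cytosol and imported. They fall into a pair of structural classes: the enzymes for leucine (Lars2), glutamate (Ears2), isoleucine (Iars2), valine (Vars2) and tyrosine (Yars2) belong to class I, and those for alanine (Aars2), phenylalanine (Fars2), asparagine (Nars2) and serine (Sars2) to class II. In humans, recessive variants in these genes cause mitochondrial disease, and the brain and its white matter are among the tissues affected, as in the leukoencephalopathies of AARS2 and EARS2.

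The start regions of the genes show what Lars2 shares with members that were much lower. The promoter table of RefSeq (GRCm38.p6) gives 250 bases before and 50 after the start it lists for each gene, and all 9 genes were matched in it. Lars2 is shown whole, from chr9:123366677-123366976 on the plus strand. For the other members that hold the same 7 letters, ATGGCGG, the last 100 bases are shown: Aars2 from chr17:45506782-45506881 (plus strand), Ears2 from chr7:122067037-122067136 (minus strand) and Yars2 from chr16:16302915-16303014 (plus strand). Capitals mark ATGGCGG, and every sequence reads 5′ to 3′ on the strand of its gene.
Lars2: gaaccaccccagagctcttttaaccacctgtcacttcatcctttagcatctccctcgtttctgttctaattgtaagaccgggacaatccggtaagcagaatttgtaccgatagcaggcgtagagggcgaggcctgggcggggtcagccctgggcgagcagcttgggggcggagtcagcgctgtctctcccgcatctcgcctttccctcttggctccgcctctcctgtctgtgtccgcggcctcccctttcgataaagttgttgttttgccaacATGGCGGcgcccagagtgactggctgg
Aars2: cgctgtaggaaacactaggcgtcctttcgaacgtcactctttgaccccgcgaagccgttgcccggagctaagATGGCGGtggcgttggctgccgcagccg
Ears2: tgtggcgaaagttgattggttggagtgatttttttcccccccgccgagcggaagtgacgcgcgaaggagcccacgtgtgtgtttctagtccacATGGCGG
Yars2: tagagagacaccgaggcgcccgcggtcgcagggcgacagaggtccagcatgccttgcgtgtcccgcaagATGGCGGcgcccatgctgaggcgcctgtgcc
ATGGCGG began at base 24 after the start in Lars2, 23 in Aars2, 44 in Ears2 and 20 in Yars2. It stood on the gene's strand in 4 of 9 members, against 2.49% of 27025 promoters, and on either strand in the same 4 members, against 4.19% of promoters. Other patterns were searched too. On the gene's strand CGGAAG stood in 2 of 9 members (9.74% of promoters), CCGCCC in 5 (21.7%) and GCGCATGC in 0 (1.94%). ATGGCGG was picked after the sequences were seen, so its share describes these genes and tests nothing. GC content of the whole windows ran from 52.3% in Sars2 to 71.7% in Fars2, with Lars2 at 58.3%.

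The members are scattered over the genome, and none of the other 8 lies on chromosome 9. In GRCm38 (RefSeq) they are Iars2 (chr1:185286642-185329419), Sars2 (chr7:28741957-28753879), Nars2 (chr7:96950839-97064758), Ears2 (chr7:122034162-122067094), Fars2 (chr13:36117428-36537595), Yars2 (chr16:16302965-16309640), Vars2 (chr17:35655634-35667639) and Aars2 (chr17:45503515-45520843). The start region shown for Aars2 lies inside these coordinates. The RefSeq gene begins 3326 bases before the GENCODE M21 model of Aars2.

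In WT placebo brain the family was very uneven. Lars2 had 153046, 229501 and 138265 counts in the 3 WT libraries, out of totals of 10612290, 14041951 and 11774367. The leucine enzyme thus stood at 14422, 16344 and 11743 CPM (counts scaled to the library total). Their binomial 95% intervals (Wilson) were 14350 to 14494, 16278 to 16410 and 11681 to 11805 CPM, so the libraries lay further apart than counting error, which is all these intervals cover. Between 98.7% and 99.1% of all counts on the 9 members belonged to Lars2. It outnumbered the next gene of each library by 3.52, 3.62 and 2.11 times, Mbp in WT replicates 1 and 3 and Kif5a in replicate 2. Over the 3 libraries the coefficient of variation of Lars2 was 16.3%, and 9 of the 100 genes ranked next by mean CPM had a larger one (their median was 7.02%).

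The other 8 members were expressed at ordinary levels in WT brain. Together they had 1761, 2024 and 1835 counts, or 166, 144 and 156 CPM. In CPM, which is not divided by length, Iars2, which charges the isoleucine tRNA, had 53.4 ± 5.8, Fars2 21.9 ± 2.3 and Aars2 19.4 ± 0.70 (SD, n = 3). Ears2, for glutamate, had 9.81 ± 1.6 CPM and Sars2, for serine, 7.82 ± 0.59 CPM (SD, n = 3). The order by CPM differs from the order per length, in which Fars2 was above Iars2 (3.79 and 3.42 on the log2(RPKM + 1) scale) and Nars2 was lowest of the 8 at 2.05. Per length, the places of Iars2 and Ears2 are uncertain, because the transcript models that gave their lengths end elsewhere than the RefSeq genes. By CPM, Iars2 ranked between 3816 and 4487 among all genes and Sars2 between 10350 and 10543, so each of them was a detected but not an abundant transcript. Counting error alone gives a coefficient of variation of 3.94% for Iars2 and 10.3% for Sars2, and the observed ones were 10.8% and 7.58%.

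**Figure D1:**
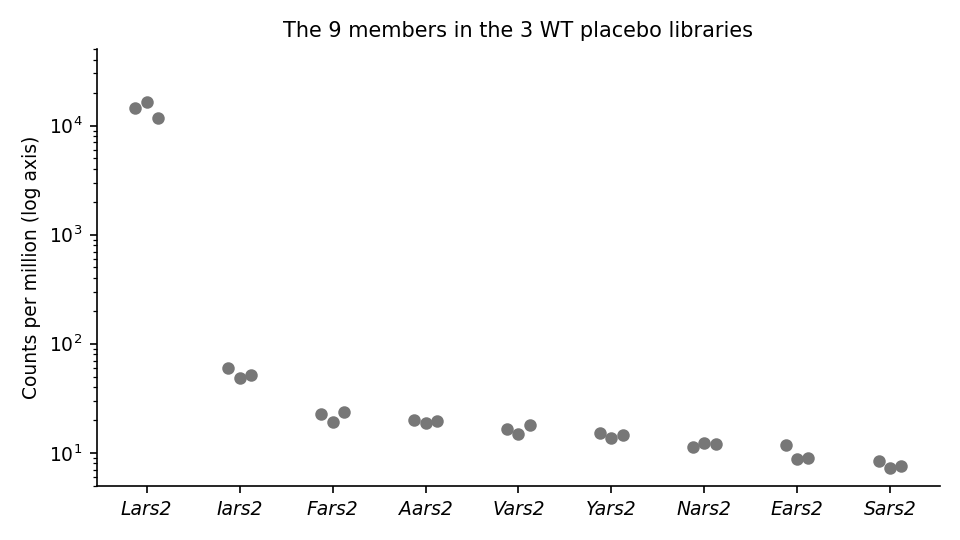
CPM (log axis) of the 9 members in the 3 WT placebo libraries, 1 point per library. Lars2 lies at 11743 CPM or above in each library, and the other 8 lie between 7.34 and 59.9 CPM.

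The TG values are scaled by transcript length, so levels of different genes are set side by side per length. The labels name a QuantSeq kit, which reads the 3′ end of transcripts, and with such a kit counts need not grow with length. Division by length can then understate long transcripts such as that of Iars2 (5471 bases), and the orders of genes per length carry that limit. The TG values are used as log2(FPKM + 1), where FPKM is reads scaled to transcript length and library depth, and the WT counts were divided by library total and by transcript length to give log2(RPKM + 1). The scales were normalized separately, so no test was made between TG and WT. In TG NM-101 libraries Lars2 was listed at 0, 0 and 0. In TG placebo libraries it stood at 12.74, 10.12 and 11.34 on the log2(FPKM + 1) scale, and in WT placebo libraries at 11.86, 12.04 and 11.56 on the log2(RPKM + 1) scale. The TG placebo values spread around the WT values, with replicate 1 above and replicates 2 and 3 below every WT library, while the NM-101 libraries shared no value with either group. A listed 0 here may be an estimate that was not made, so no fold change is read from it.

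TG placebo libraries differed from each other in Lars2 far more than in any other member. Its linear FPKM was 6859 in replicate 1, 1115 in replicate 2 and 2584 in replicate 3, a 6.15-fold range, whereas the WT libraries spanned a 1.39-fold range in CPM. With a transcript length of 3894 bases, the placebo values amount to 2.67%, 0.434% and 1.01% of reads, beside 1.44%, 1.63% and 1.17% of WT counts. Lars2 ranked 1, 28 and 6 among all genes in those placebo libraries. Its SD of 1.31 over the TG placebo libraries was exceeded by 66 of 12699 genes tested, and the SDs of the other 8 members lay between 0.04 and 0.26. The total to which the values were scaled may include Lars2. If so, taking its reads out would raise the log2 FPKM of every other gene there by 0.0391, 0.00628 and 0.0146. On the log2(FPKM + 1) scale the rise would be smaller, most of all for low genes. The normalization is not stated, and the part of the Lars2 reads in the values of the other members was not tested.

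Other RNAs also separated TG placebo replicate 1, where Lars2 was highest, from replicates 2 and 3. The summed level of the 7 nuclear-retained RNAs in the table, among them Malat1 and Meg3, was 8.64, 8.61 and 8.27 on the log2 scale in NM-101 libraries and 7.63, 10.16 and 10.43 in TG placebo libraries. The summed level of 3 choroid plexus genes, led by the thyroid hormone carrier Ttr, was 5.34, 10.01 and 6.06 under NM-101 and 12.15, 3.14 and 3.80 under placebo, and in WT libraries these genes had 3647, 11.1 and 36.0 CPM. Placebo replicate 1 was low in the nuclear RNAs and high in the choroid genes. The part of either in the levels of Lars2 was not tested. Oligodendrocyte markers had a median of 7.05, 6.35 and 6.60 in NM-101 libraries and 7.45, 6.01 and 5.96 in TG placebo libraries (8 genes, none at 0). The 5 neuronal markers had a median of 7.90, 7.75 and 7.90 in NM-101 libraries and 8.05, 7.37 and 7.33 in TG placebo libraries, so neuronal RNA was plentiful in libraries labelled as oligodendrocyte. In bulk samples, fewer cells of a type and less RNA per cell cannot be told apart.

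**Figure D2:**
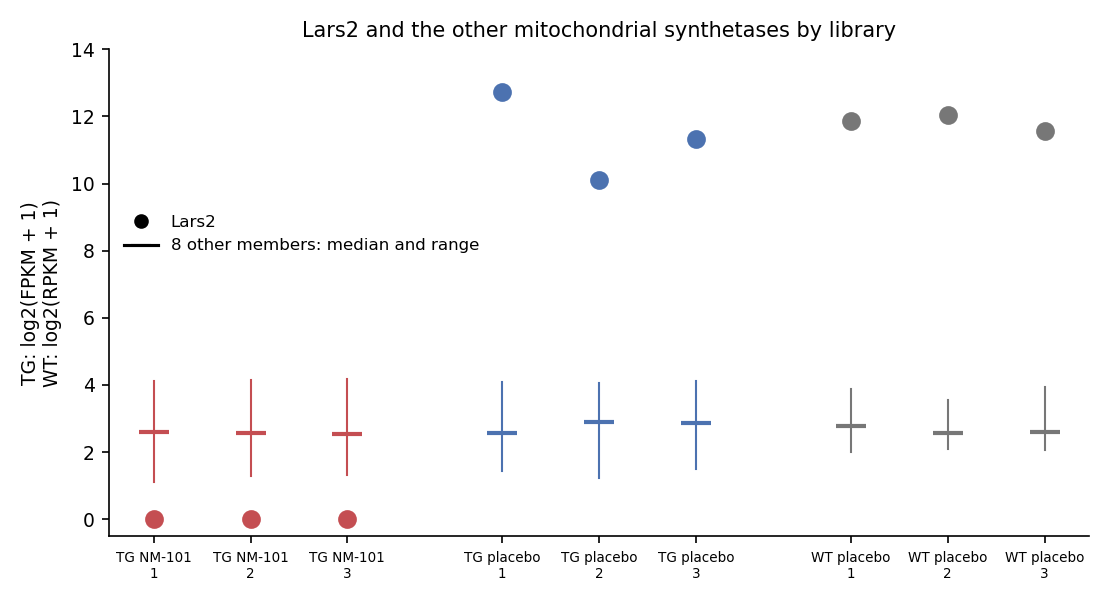
Level per length of Lars2 (circles) and of the 8 other members (dash, median; line, range) in each library, as log2(FPKM + 1) for TG and log2(RPKM + 1) for WT libraries, which were normalized separately. Lars2 lies at 0 in the 3 TG NM-101 libraries, between 10.12 and 12.74 in TG placebo and between 11.56 and 12.04 in WT placebo, while the median of the other 8 stays between 2.55 and 2.90 in all 9 libraries.

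Few genes shared the pattern of Lars2. Of 23798 genes, 32 were listed at 0 in every NM-101 library and above 0 in every TG placebo library. Among the 12699 genes tested they were 4 (0.0315%). A gene at 0 under NM-101 is tested only if its placebo mean is at least 2, so that share is partly set by the filter. The reverse, 0 in every TG placebo and above 0 in every NM-101 library, held for 16 genes, none with a mean log2 level of 1 or more under NM-101 (the highest was 0.46). After Lars2, the genes of the pattern with the highest placebo level were Zc3h7a, a zinc finger protein gene, Rnu12, the U12 small nuclear RNA of the minor spliceosome, and Cmss1. Zc3h7a stood at 2.72, 3.56 and 3.68 in TG placebo libraries, Rnu12 at 3.02, 3.36 and 3.51, and Cmss1 at 2.87, 2.90 and 3.34. In these genes replicate 1 was the lowest placebo library, and in Lars2 it was the highest. Filip1l, whose locus lies inside that of Cmss1 on chromosome 16, followed at 0.76, 0.69 and 1.09, and Insl5 at 0.25, 1.08 and 1.03. In WT libraries Zc3h7a had 271, 313 and 297 counts, Cmss1 116, 140 and 133, Filip1l 45, 51 and 56, and Insl5 1, 3 and 1, while Rnu12 had 0 in each.

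**Figure D3:**
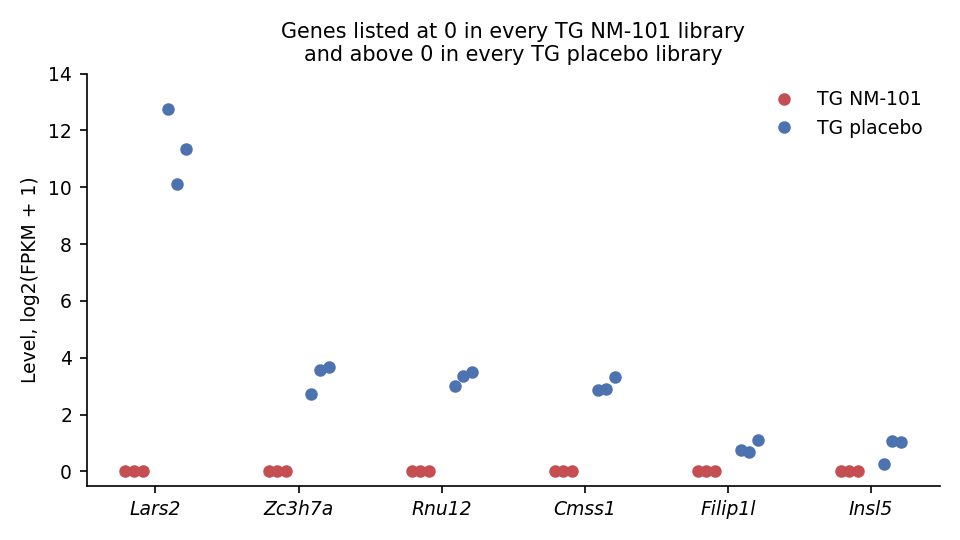
Level, log2(FPKM + 1), of the 6 genes with the highest placebo mean among those listed at 0 in all TG NM-101 libraries and above 0 in all TG placebo libraries, 1 point per library. Lars2 lies above 10 in each placebo library, and the next 3 genes lie between 2.72 and 3.68.

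The locus around Lars2 did not share its pattern. Lars2 lies on chromosome 9 from 123366927 to 123462675 in GRCm38, and the deposited transcript NM_153168 corresponds to a GENCODE M21 model of 21 exons with a 989-base 3′ UTR. Its neighbour Sacm1l, a phosphoinositide phosphatase gene, stood at 4.80, 4.34 and 4.55 in NM-101 libraries and at 4.51, 4.42 and 4.55 in TG placebo libraries. Limd1 stood at 2.07, 2.17 and 1.86 under NM-101 and at 2.23, 1.78 and 1.96 under placebo. The groups overlapped in both. Tmem158 was at 4.54, 4.74 and 4.70 under NM-101 and at 4.43, 4.45 and 4.35 under placebo. It was higher without overlap, as were 13.6% of all genes tested. The limma adjusted p was 0.284 for a difference of 0.25 ± 0.10 (SE).

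The transcript of Lars2 also differed from those of its family in what it shares with other genes. Among the 11 transcripts, Lars2 was the one with a stretch of at least 50 bases and at least 95% identity to a gene at another place in the genome. Bases 3278 to 3349 of its M21 model, within the 3′ UTR, matched 72 bases of the noncoding gene Gm15564, which lies elsewhere in the genome, at 98.6% identity and on the same strand. Gm15564 was not analysed here. In the M21 models, Ears2, Fars2, Iars2, Nars2 and Vars2 share exon sequence with a gene on the opposite strand at their own locus. The longest share is 2034 bases between Iars2 and Rab3gap2. These are bases 3438 to 5471, the 3′ end of the Iars2 model. That model runs past the RefSeq end, so much of the stretch lies outside the RefSeq gene. No strand setting of the counting is stated, so reads in the shared stretches cannot be told apart. Whether reads from these stretches entered the values was not tested. Of 10 ribosomal and related RNA entries searched by symbol, Rn4.5s was the one in the table, and it was at 0 in all 9 libraries.

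NM-101 was compared with placebo in TG mice to ask whether the rest of the family moved with Lars2. No other member passed: limma called 0 of the 8, and 0 had an unadjusted p under 0.05, against 14.8% of all genes tested. Over all genes tested 17 of 12699 passed (0.134%), 13 higher (0.102%) and 4 lower (0.0315%). Lars2 was in that fit and is counted among the lower. It was chosen for these values, so its call is not read as a result. Other settings with all 6 libraries called 0 to 17 genes, and the fit without TG placebo replicate 1 called 2262. The differences of the 8, NM-101 minus placebo on the log2(FPKM + 1) scale, ran from -0.28 to 0.11 with SEs between 0.10 and 0.17, and 6 were negative. Their median was -0.09, against 0.03 over all genes tested. The 95% intervals reached at most from -0.65 to 0.42, so differences of that size in single members cannot be set aside.

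Sars2 had the largest difference. The serine enzyme was at 2.33, 2.46 and 2.40 in NM-101 libraries and at 2.43, 2.81 and 2.79 in TG placebo libraries, where replicate 1 lay among the NM-101 values. The difference was -0.28 ± 0.15 (SE) with a limma adjusted p of 0.398. Vars2, for valine, was at 2.47, 2.29 and 2.14 under NM-101 and at 2.27, 2.67 and 2.76 under placebo (difference -0.27 ± 0.17 SE, limma adjusted p = 0.477), again with placebo replicate 1 inside the NM-101 range. Aars2, for alanine, was at 2.70, 2.69 and 2.70 under NM-101 and at 2.71, 2.98 and 2.95 under placebo (difference -0.18 ± 0.13 SE, limma adjusted p = 0.509). Its groups did not overlap, although the lowest placebo and the highest NM-101 library were nearly equal. That made 1 of 8 members without overlap, against 19.6% of all genes tested (5.98% lower).

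These 3 members shared a low value in TG placebo replicate 1, at least 0.2 on the log2 scale below both other placebo libraries, as did 24.2% of all genes tested. Without that library Sars2 passed, at -0.40 ± 0.12 (SE) with a limma adjusted p of 0.0466. In that fit 17.8% of 12729 genes passed (8.17% lower), so 1 of 8 is near the background. Vars2 was then at -0.41 (limma adjusted p = 0.0685) and Aars2 at -0.27 (limma adjusted p = 0.134).

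Markers of other cell types were also higher or lower on average between the TG groups. Limma passed 0 of them, against 0.134% of all genes tested. In that fit 3 astrocyte, 4 microglia and 1 endothelial marker had an unadjusted p under 0.05, against 14.8% of all genes tested. All 5 astrocyte markers were higher on average under NM-101 (median 0.38), with a summed log2 level of 10.62, 10.56 and 10.66 in NM-101 and 10.23, 10.13 and 10.04 in TG placebo libraries. All 5 microglia markers were higher on average too (median 0.35), at 7.26, 7.20 and 7.21 under NM-101 and 6.83, 6.97 and 6.85 under placebo. The 4 endothelial markers were lower on average (median -0.29), at 4.81, 4.94 and 4.51 under NM-101 and 4.47, 5.28 and 5.21 under placebo, and 0 of the markers in these lists were at 0 in all libraries. Their part in the values of the synthetases was not tested.

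The remaining members overlapped between groups. Fars2, for phenylalanine, was at 3.87, 4.14 and 4.00 in NM-101 libraries and at 4.09, 3.81 and 4.13 in TG placebo libraries. Iars2 was at 4.12, 3.94 and 4.18 under NM-101 and at 4.01, 4.06 and 3.94 under placebo. Yars2, for tyrosine, was at 3.47, 3.38 and 3.10 under NM-101 and at 3.32, 3.21 and 3.09 under placebo. Their differences were -0.0081, 0.08 and 0.11. Nars2, for asparagine, was at 2.05, 1.96 and 2.12 under NM-101 and at 2.04, 2.10 and 2.11 under placebo. Ears2 was at 1.12, 1.28 and 1.33 under NM-101 and at 1.45, 1.22 and 1.49 under placebo. Their limma adjusted p-values lay between 0.689 (Ears2) and 0.983 (Fars2).

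**Figure D4:**
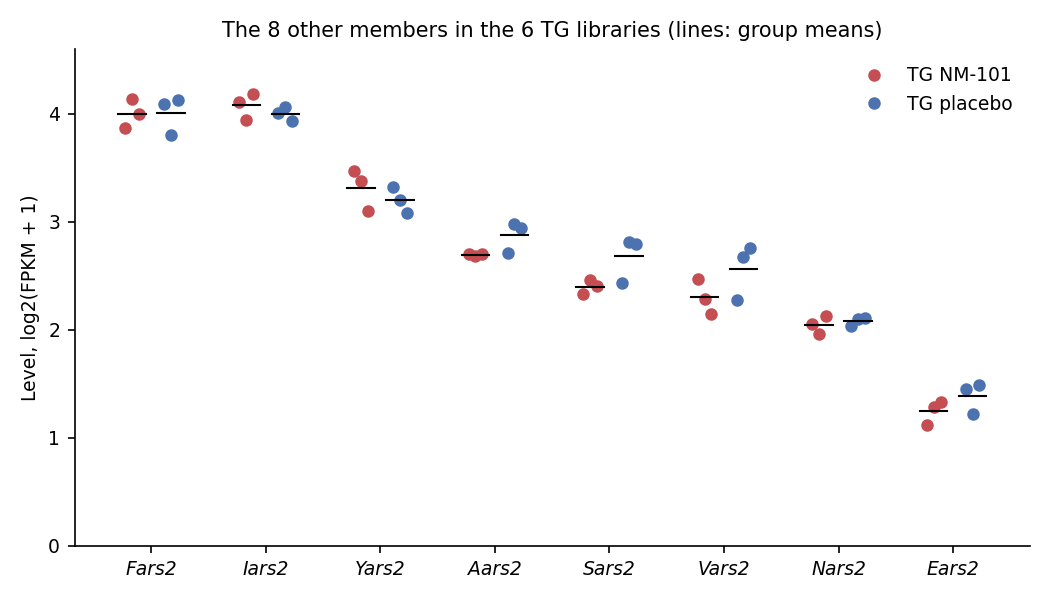
Level, log2(FPKM + 1), of the 8 other members in the TG NM-101 and TG placebo libraries, 1 point per library and a line at each group mean. Placebo replicate 1, the leftmost placebo point, lies with the NM-101 points in Aars2, Sars2 and Vars2, and every member but Aars2 overlaps between the groups.

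**Figure D5:**
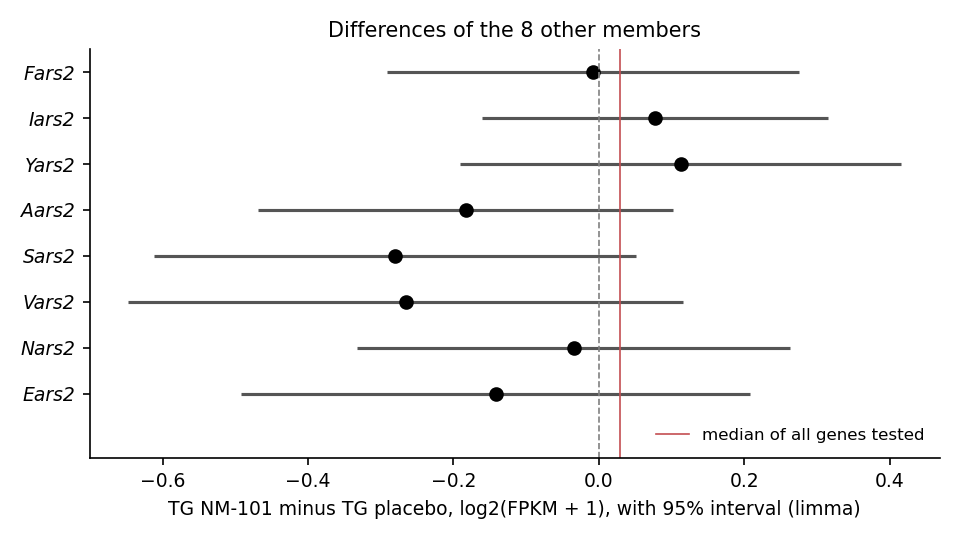
Difference, TG NM-101 minus TG placebo, of the 8 other members on the log2(FPKM + 1) scale with 95% intervals from limma. Every interval includes 0 and the red line marks the median of all genes tested, 0.03.

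The order of the 8 by level was nearly the same in both TG groups. Under NM-101, Iars2 (4.08 ± 0.13) and Fars2 (4.00 ± 0.14) led and lay 0.08 apart, then came Yars2 (3.32 ± 0.19), Aars2 (2.70 ± 0.01), Sars2 (2.40 ± 0.06), Vars2 (2.30 ± 0.16), Nars2 (2.05 ± 0.08) and Ears2 (1.24 ± 0.11, SD, n = 3, log2(FPKM + 1)). Neighbours in that order overlapped for Iars2 and Fars2 and for Sars2 and Vars2, and for no other pair. Under placebo Fars2 (4.01 ± 0.18) stood just above Iars2 (4.00 ± 0.06), and Aars2 and Sars2 overlapped as well. The largest steps in both groups lay below Fars2 and Iars2 and between Nars2 and Ears2.

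In WT libraries the 8 were at similar heights. Their median was 2.77, 2.56 and 2.60 on the log2(RPKM + 1) scale, beside 2.59, 2.57 and 2.55 in NM-101 and 2.57, 2.90 and 2.87 in TG placebo libraries on the log2(FPKM + 1) scale. Fars2 was at 3.79 ± 0.21 and Nars2 at 2.05 ± 0.05 in WT (SD, n = 3). The WT order was Lars2, Fars2, Iars2, Yars2, Aars2, Ears2, Sars2, Vars2 and Nars2. Neighbours overlapped from Fars2 to Yars2 and from Aars2 to Vars2, but not at the steps from Lars2 to Fars2, Yars2 to Aars2 and Vars2 to Nars2. The places of Ears2 and Iars2 are uncertain, because the M21 model of Ears2 ends 4659 bases short of the RefSeq gene at its 3′ side and that of Iars2 runs past the RefSeq end. Ears2 came out at 1.38 in TG placebo and 2.53 in WT, and Iars2 at 4.00 in TG placebo and 3.42 in WT.

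Fars2 and Yars2 are the members with more than 1 transcript in the table. The shorter Fars2 transcript NM_001039189 was at 1.24, 1.64 and 0.001 in NM-101 libraries, at 1.65, 1.60 and 2.42 in TG placebo libraries, and had 53, 41 and 71 counts in WT. Its near absence from NM-101 replicate 3 was not seen in the main transcript NM_024274, which stood at 3.73, 3.96 and 4.00 under NM-101 and at 3.90, 3.58 and 3.72 under placebo. The noncoding Yars2 transcript NR_038046 was at 0.55, 1.65 and 1.40 under NM-101 and at 1.46, 1.89 and 1.41 under placebo, with 7, 44 and 32 counts in WT. How reads were assigned to the transcripts of a gene is not stated, and its part in these values was not tested.

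The rest of the charging and translation machinery gave no call either. Over all genes tested 0.134% passed, so 0 calls in lists of this size are near that share. Of 13 other mitochondrial synthetases and subunits of the amidotransferase that makes glutaminyl-tRNA, limma passed 0. The 13 include Kars and Gars, which have no separate entry in the cytosolic list and were higher on average (0.11 and 0.05). Of these 13 genes, 0 had an unadjusted p under 0.05, against 14.8% of all genes tested. Their median difference was -0.08, with 10 lower, and 3 had no overlap between groups, against 19.6% of all genes tested (5.98% lower). These were lower under NM-101: Tars2 for threonine (-0.32), the amidotransferase subunit Qrsl1 (-0.23) and Wars2 for tryptophan (-0.15). Of 22 cytosolic synthetases and scaffold proteins limma likewise passed 0. In that list 2 had an unadjusted p under 0.05, against 14.8% of all genes tested, and the median was -0.08. Without overlap between groups, 4 of its genes were higher and 1 lower, against 13.6% higher and 5.98% lower over all genes tested. Lars, which encodes the cytosolic leucine enzyme, was at 3.37, 3.66 and 3.47 in NM-101 libraries and at 3.41, 3.63 and 3.70 in TG placebo libraries. The smallest p in that list belonged to Eef1e1, a scaffold protein of the cytosolic synthetase complex, at 5.31 ± 0.10 under NM-101 and 4.81 ± 0.12 under placebo (SD, n = 3, limma adjusted p = 0.0995). Next in that list were Vars for valine at -0.31 and Tarsl2 for threonine at 0.22.

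Limma also passed 0 of 12 mitochondrial translation factors and 0 of 14 genes of mitochondrial tRNA processing and modification. It passed 0 of 10 genes of mitochondrial DNA maintenance and transcription. These counts are near the share over all genes tested, 0.134%. At an unadjusted p under 0.05 these lists had 0, 1 and 3 genes, against 14.8% of all genes tested, and their medians were -0.08, -0.04 and 0.08. Without overlap between groups, 0 of the translation factors were higher or lower, 3 genes of the tRNA list were higher and 2 lower, and 2 genes of the DNA list were higher and 2 lower, against 13.6% higher and 5.98% lower over all genes tested. Among translation factors the smallest p-values were those of the ribosome recycling factor Gfm2 (-0.54) and the elongation factors Tsfm (0.26) and Gfm1 (0.21). In the tRNA list they were those of Hsd17b10, a subunit of mitochondrial RNase P (0.25), the thiouridylase Trmu (-0.30) and the methyltransferase Nsun3 (0.35). In the DNA list they were those of the RNA-binding protein Slirp (0.41), the mitochondrial transcription factor Tfam (0.28) and the DNA polymerase Polg (-0.26).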

How the data were processed

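Libraries were made with a QuantSeq kit from RNA extracted with a kit for fixed, embedded tissue, per the labels' protocols. Bowtie2 and mm10 are named in the submitters' processing notes; the sources used here do not name the counter, normalization or annotation. In the 1 deposited table, the WT columns hold whole-number counts and the 6 TG columns log2 values. The deposited log2 values were read as log2(FPKM + 1), a unit the labels do not state. On that reading they were taken back to the linear scale and averaged over the 6 TG libraries. The log2 of this mean was fitted jointly on log2 WT CPM (slope 0.969) and log2 length (slope -0.845) over 19526 transcripts. The fit assumes the reading, so it cannot prove it. The low TG values lay in steps that imply 9110000 to 12980000 reads per TG library. In transcripts of 2500 to 6000 bases that are alone in their gene, 80.1% to 83.5% lay within 0.2 of a whole read. In NM-101 replicate 3 and TG placebo replicate 1 another depth matched the steps nearly as well, so the depth of these 2 libraries, and the lower end of that range, is uncertain. WT totals ran from 10612290 to 14041951 counts.

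Of 33299 transcripts 32390 were named from a RefSeq gene table (GRCm38.p6), and 909 kept their identifiers. Transcripts of a gene were added on the linear scale, and the sum was written as log2(value + 1). Genes with a mean of at least 1 over the 6 TG libraries (12699) entered limma 3.58.1 (R 4.3.3; trend and robust shrinkage), and p-values were adjusted by Benjamini-Hochberg over all of them at a threshold of 0.05. Fold changes on this scale understate low genes. Lengths came from GENCODE M21 (GRCm38). Shared stretches were searched with BLAST 2.17.0, and WT counts were also scaled by TMM in edgeR 4.0.16. The members, the gene lists and the rule for naming genes (the members, the first 6 genes of the 0 pattern, up to 3 genes of smallest p per list) were chosen with earlier results of these data known. Alternatives were other scalings, filters, pseudocounts, the replicate number as a block and leaving out each library.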

Additional observations from a re-analysis of the deposited data

How the results depend on the processing

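The count of genes called between TG NM-101 and TG placebo depended on the setting: 17 in the fit reported, 17 with a pseudocount of 0.1, 4 with median-ratio scaling, 4 with single transcripts, 4 without the filter on low values, 4 without trend and robust shrinkage, and 0 of 12664 among genes above 0 in all 6 libraries (1894 at an unadjusted p under 0.05 in limma). Leaving out 1 library gave 2 to 2262 calls, the highest without TG placebo replicate 1. Of the 8 members other than Lars2, 0 passed in every fit but that one, where 1 did (Sars2), a range of 0 to 1. With the replicate number as a block 3 genes and 0 of the 8 members passed. Same-numbered deviations correlated at 0.05, -0.07 and 0.01, and different-numbered ones at -0.07 to 0.11. No pairing by number was seen, but such correlations cannot show that there is none. The difference between groups in Lars2, -11.40 with a pseudocount of 1, was -14.72 with 0.1, because 1 group is listed at 0; these are differences of listed values that depend on the pseudocount, not estimates of a fold change. Fars2, at -0.0081, turned to 0.16 with single transcripts, 0.0598 without NM-101 replicate 1, 0.03 without TG placebo replicate 1 and 0.05 without TG placebo replicate 3 (leave-one-out range -0.109 to 0.0598). Nars2, at -0.03, turned to 0.0075 without NM-101 replicate 2 (range -0.0735 to 0.0075). The cause of these turns was not tested. The other 6 members kept their direction in every fit. WT levels of all 9 members moved by less than 1 SD under each scaling. With 3 libraries a group, intervals as wide as -0.65 to 0.12 (Vars2) limit what can be detected in the 8.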
